A study of Solanum lycopersicum with 27 samples.

Results

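The 60 most abundant transcripts of wild-type (WT) tomato fruit at the breaker stage were followed through 9 groups of fruits. They were selected on the values of WT fruit at 34 days post anthesis (dpa): all 34075 genes of the deposited table were ranked by the mean of the 3 WT libraries of that age, and the 60 highest were kept. A gene is named below by its rank in that order, and by its identifier where the rule for named genes allows it. The gene at rank 60 averaged 1654 FPKM (a count of sequenced fragments scaled for gene length and for the mapped fragments of the library), and the gene just outside, at rank 61, averaged 1635 FPKM. Leaving out WT replicate 1 kept 59 of the 60 genes in the list, and leaving out replicate 2 or 3 kept all 60. Because the WT values at 34 dpa chose the genes, every difference from that group is given as a description, with no test.

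RNA was sequenced from fruits of Solanum lycopersicum, cultivar Ailsa Craig, in 27 libraries, 3 in each group, with no treatment. WT, dml2-3 and rin/tdr4-1 fruits were taken at 25 dpa and at 34 dpa, which the labels equate with the breaker stage, and rin-1, tdr4-1 and nor-1 fruits were taken at 34 dpa only. The mutants share the WT cultivar, and rin/tdr4-1 by its name combines a rin mutation with the tdr4-1 allele. The labels do not say whether that rin allele is rin-1, how the alleles were made, how many fruits were pooled or how many plants each line stands for. Nor do they say whether replicates came from separate plants, so the p-values measure the spread between these libraries, which may be technical.

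As background, breaker is the stage at which a mature tomato first loses its green colour and ripening begins, with softening, pigment change and aroma. The genes behind the mutants act in this process: RIN and TDR4 (MADS-box family) and NOR (NAC family) encode transcription factors. DML2 encodes a DNA demethylase, which acts in the removal of cytosine methylation from DNA during ripening. In fruit tissue a small number of transcripts can take up a large part of the messenger RNA, so that their levels weigh on every relative measure. In RNA pooled over a fruit, fewer cells that express a gene and less of its RNA per cell cannot be told apart.

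Neither the deposited table nor the reference table used here pairs its identifiers with gene names: 0 of them matched any of 41476 reference genes. For that reason the transcripts are described by position in the ranking and by behaviour, the function of each was not analysed here, and the labelled tissue and the mutated genes could not be checked against markers. Library depth is unknown, since FPKM carries none, and the columns summed to between 863193 and 1122755 FPKM. No 2 libraries held identical values. One library stood apart: dml2-3 at 25 dpa, replicate 3, correlated with replicates 1 and 2 of its group at r = 0.917 and 0.916 across genes, whereas those 2 correlated at 0.99. The median coefficient of variation of the 60 genes was 37.6% in that group and 2.84% to 9.4% in the other 8, and counts of called genes and named differences that involve it are given with and without that library.

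The 60 genes held 37.98% ± 1.84 (SD, n = 3) of all FPKM in WT fruit at 34 dpa and 14.26% ± 1.3 in WT fruit at 25 dpa. The share was 40.65% ± 1.52 in tdr4-1, 32.01% ± 0.528 in rin-1 and 30.99% ± 1.36 in nor-1 fruit at 34 dpa. It was 19.11% ± 0.463 in rin/tdr4-1 and 11.37% ± 0.428 in dml2-3 fruit of the same age. At 34 dpa the libraries of WT and tdr4-1 thus overlapped (36.05% to 39.71% and 39.46% to 42.37%). Below them, those of rin-1 and nor-1 also overlapped (31.5% to 32.56% and 29.54% to 32.25%). Lower still were rin/tdr4-1 and then dml2-3, both apart from the rest and from each other.

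At 25 dpa the share was 18.43% ± 0.8 in rin/tdr4-1 fruit, and in dml2-3 fruit it was 22.56%, 21.88% and 16.1% in the 3 libraries. The dml2-3 fruits were the group in which every library at 34 dpa lay below every library at 25 dpa, by 8.81 percentage points on average (a difference of -10.8 points without replicate 3 at 25 dpa), while in WT every library lay above, by 23.7 points. In rin/tdr4-1 the ranges at the 2 ages overlapped, at 18.58% to 19.41% and 17.52% to 19.04%. Much of the dml2-3 difference lay in the rank 1 gene, with 9.32% at 25 dpa and 2.68% at 34 dpa. Ranks 2 to 60 held 10.86% and 8.69% in dml2-3, and 13.87% and 9.8% in rin/tdr4-1. In rin/tdr4-1 the rank 1 gene held 4.56% and 9.31%. The summed share of ranks 2 to 60 was thus lower at 34 dpa in both lines, with no overlap between the ages. In rin/tdr4-1 the drop lay in ranks 2 and 3, with 7.48% at 25 dpa and 2.83% at 34 dpa. Ranks 4 to 60 of that line were higher at 34 dpa, at 6.97% against 6.39%, without overlap. In dml2-3 ranks 4 to 60 were lower at 34 dpa, at 4.86% against 6.14%. Ranks 11 to 60 of dml2-3 were higher, at 4.34% against 4.07%. Neither overlapped between the ages. The genes ranked 61 to 120, a comparison list chosen after the values were seen, held 6.31% in WT at 34 dpa and 3.71% at 25 dpa, 6.1% in tdr4-1, 6.01% in nor-1, 4.38% in rin-1, 3.95% in rin/tdr4-1 and 3.83% in dml2-3 fruit at 34 dpa.

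**Figure D1:**
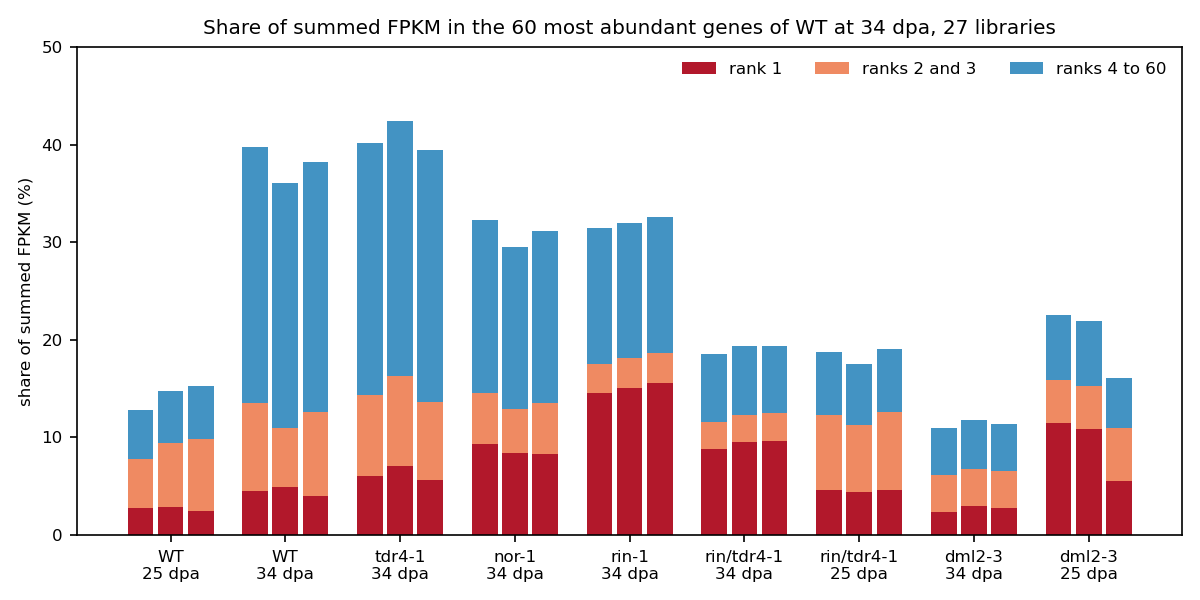
Share of the summed FPKM (%) held by the 60 genes, one bar for each of the 27 libraries, split into the rank 1 gene, ranks 2 and 3, and ranks 4 to 60. Ranks 4 to 60 held 25.6% in WT at 34 dpa and 4.86% in dml2-3 fruit of that age, and the rank 1 gene alone held 15.04% in rin-1 fruit.

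The share of the highest transcript varied separately from that of the rest. Solyc10g017970.1, at rank 1, measured 46588, 48969 and 40084 FPKM in WT fruit at 34 dpa, and 158366, 167038 and 175083 FPKM in rin-1 fruit. It took 4.47% of all FPKM in WT at 34 dpa, 6.23% in tdr4-1, 8.67% in nor-1, 9.31% in rin/tdr4-1 and 15.04% in rin-1, against 2.68% in dml2-3. It was the highest transcript in 8 of the 9 groups and stood at rank 3 in WT at 25 dpa. Without it, the other 59 genes held 33.5% in WT and 34.4% in tdr4-1, 22.3% in nor-1, 17% in rin-1, 9.8% in rin/tdr4-1 and 8.69% in dml2-3 fruit at 34 dpa, so that nor-1 and rin-1, which overlapped in the whole share, no longer did.

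The difference between the WT ages, described without a test, divided the list. Of the 60 genes, 34 stood at least 10-fold higher at 34 than at 25 dpa, 11 between 2-fold and 10-fold higher and 15 within 2-fold, and 0 stood 2-fold lower. The cuts of 2 and 10 were set after the values were seen. Among 15230 genes with at least 1 FPKM in WT at 34 dpa, 7.82% were at or below 1/2 of that level at 25 dpa (295 genes at or below 1/10). Another 28.0% were at least 2-fold higher at 25 dpa. The 60 were chosen for being high at 34 dpa, and nothing is read from the difference. The 34 genes with the steepest difference held 0.543% of FPKM in WT at 25 dpa and 17.99% at 34 dpa. They held 18.16% in tdr4-1, 11.12% in nor-1 and 7.56% in rin-1, but 0.688% in rin/tdr4-1 and 0.545% in dml2-3 fruit at 34 dpa. The 15 genes within 2-fold moved over a narrower range, from 10.1% in dml2-3 at 34 dpa to 20.45% in rin-1.

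Among the steepest was Solyc06g076520.1, at rank 4, with 886, 1018 and 1044 FPKM in WT at 25 dpa and 17645, 12463 and 16588 FPKM at 34 dpa. Solyc06g076560.2, at rank 5, had 203, 223 and 228 FPKM at 25 dpa and 17031, 11574 and 14970 FPKM at 34 dpa. The first was 15.8-fold and the second 66.7-fold higher at 34 dpa, and in neither did the groups overlap. The widest difference was at rank 12, with 3.07, 2.08 and 2.43 FPKM at 25 dpa and 7546, 8421 and 7300 FPKM at 34 dpa, a ratio of 3070. In WT fruit this transcript therefore went from a position of 15881 among all genes to 12.

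At the other end, 4 of the 60 stood lower at 34 dpa than at 25 dpa in WT: those at ranks 17, 55, 29 and 46, at 0.632, 0.642, 0.656 and 0.77 times their level at 25 dpa. The most even transcript over all 9 groups was that at rank 60, whose highest group mean was 1.64 times its lowest (2057 FPKM in rin/tdr4-1 at 34 dpa and 1250 FPKM in nor-1). Ranks 38, 46, 3 and 31 followed with ratios of 1.65, 1.69, 1.91 and 1.93. The gene at rank 3 stayed among the 3 highest in every group, with group means between 20400 and 38890 FPKM. In all, 15 of the 60 exceeded 1000 FPKM in every one of the 27 libraries, and 28 exceeded 100 FPKM.

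**Figure D2:**
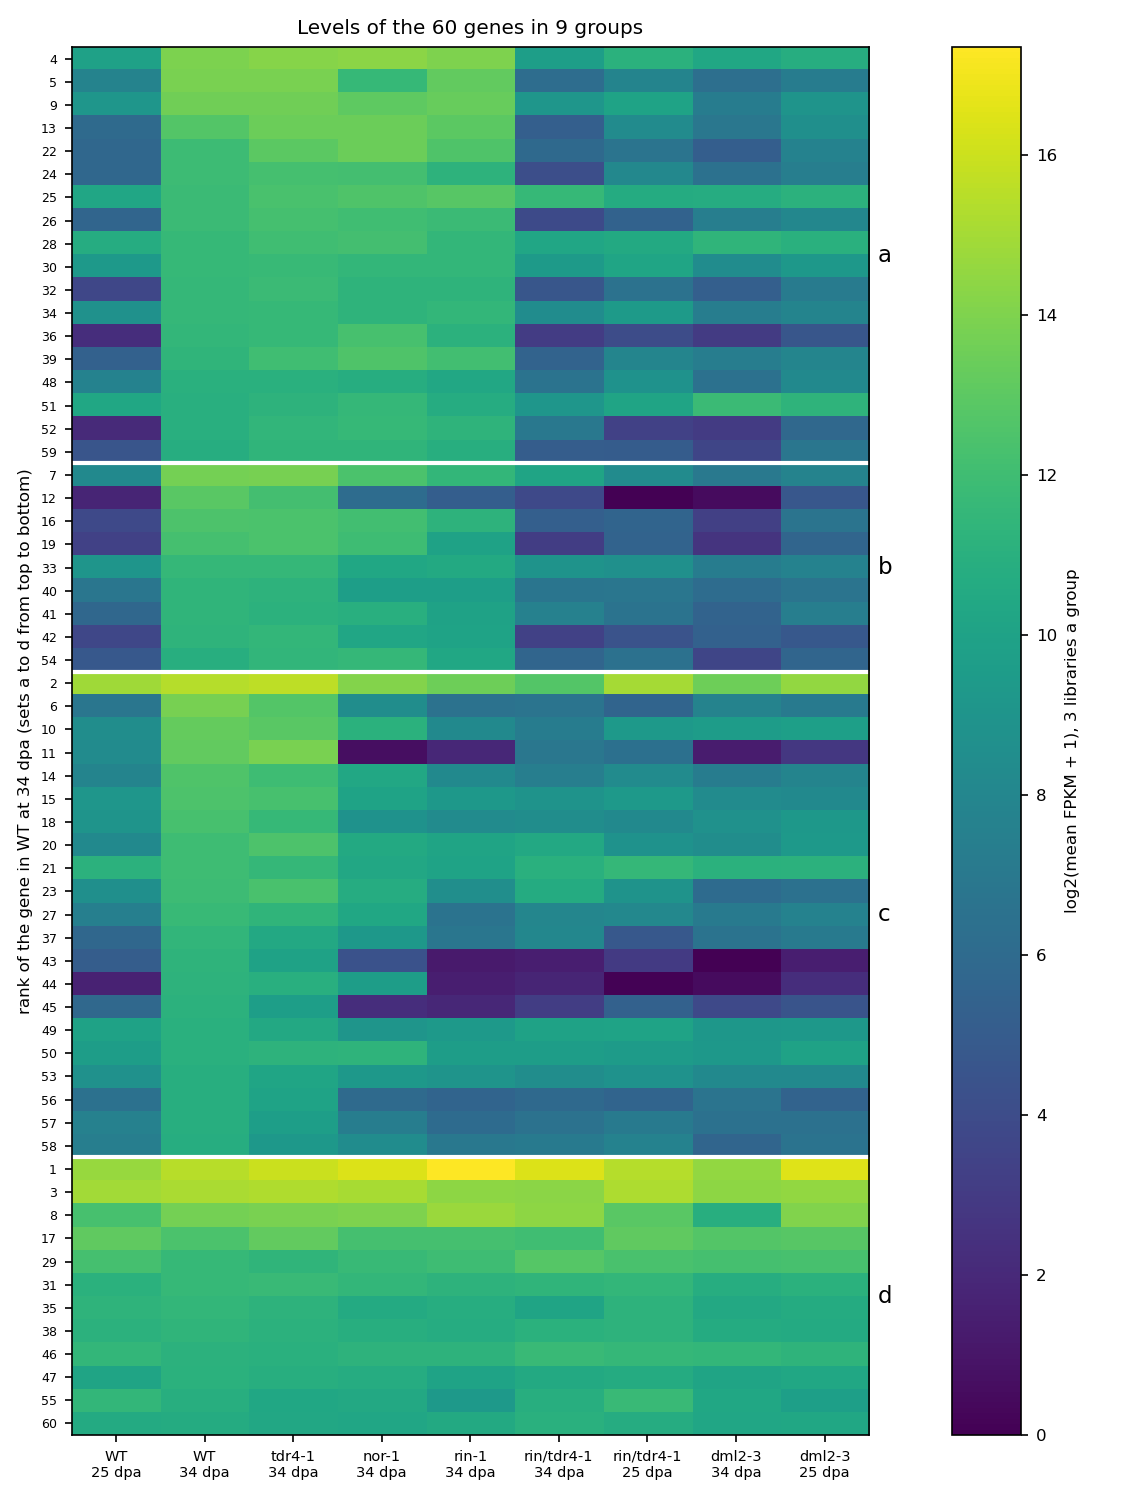
Mean level of each of the 60 genes (rows, by rank in WT at 34 dpa) in the 9 groups (columns), as log2(mean FPKM + 1), 3 libraries a group, with rows ordered by sets a to d as defined in the text. Sets a to c are bright in WT and tdr4-1 at 34 dpa and dark in WT at 25 dpa for most rows; set d, 12 genes, is bright in every column.

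Read against WT at 34 dpa, the mutants differed in how much of the list they kept. In tdr4-1 fruit 5 of the 60 genes stood at or below 1/2 of the WT level, and the median gene stood at 102.2% of it. The corresponding counts were 26 in nor-1 (median 75.6%), 30 in rin-1 (49.98%), 47 in rin/tdr4-1 (7.57%) and 47 in dml2-3 fruit (5.06%), beside 45 in WT fruit at 25 dpa (6.93%). Among 15230 genes with at least 1 FPKM in WT at 34 dpa, the share at or below 1/2 of WT was 2.92% in tdr4-1, 9.4% in nor-1, 8.05% in rin-1, 7.77% in rin/tdr4-1 and 10.3% in dml2-3 fruit, but the 60 were chosen for being high in WT and nothing is read from the difference. Of the 60 genes, 50 were also among the 60 highest of tdr4-1 fruit, 36 of nor-1, 33 of rin-1, 19 of rin/tdr4-1 and 18 of dml2-3 fruit at 34 dpa, against 17 of WT fruit at 25 dpa. Levels at or below 1/100 of WT were found for 14 genes in rin/tdr4-1, 14 in dml2-3, 6 in rin-1 and 4 in nor-1 fruit, and for 0 in tdr4-1. Among the 15230 genes the counts were, in the same order, 94, 133, 88, 69 and 17. Genes chosen for being high in WT have more room for such a difference, and nothing is read from these counts.

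Tests were made only between groups other than WT at 34 dpa. Of these, tdr4-1 at 34 dpa was close to the group that chose the genes, with 50 of them among its own 60 highest. In every comparison with tdr4-1, an excess of genes higher in tdr4-1 is thus partly fixed by the choice. Nothing is read from that excess over all genes. They used limma on log2(FPKM + 1) over 18906 genes that reached 1 FPKM in 3 or more libraries, among them all 60, and a gene was called at an adjusted p under 0.05. Differences below are on that log2 scale, with the standard error of the fit; this scale understates the difference of genes near 0. FPKM is a relative scale, on which a larger share for some genes leaves a smaller one for the rest. In tdr4-1 at 34 dpa minus WT at 25 dpa the median of all genes tested was -0.60, and in the comparisons of the other 34 dpa mutants with tdr4-1 it was between 0.11 and 0.57. With size factors these medians were within 0.03 of 0, and the counts under size factors are given beside the main ones.

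Of the 60 genes, 52 were higher and 3 lower in tdr4-1 fruit at 34 dpa than in WT fruit at 25 dpa, where 13.3% of all genes tested were called higher and 66.5% lower. Their median difference was 3.79. With size factors 57 were higher and 1 lower, beside 35.9% and 38.3% of all genes; with quantile scaling the counts were 43 and 9, beside 38% and 33.8%. Age and genotype differ together in this comparison and cannot be told apart. The 34 genes of the steepest WT class and the 11 of the intermediate class were all among those called higher, which the choice of the classes fixes in large part: they were defined by low values in these same WT libraries at 25 dpa and high values in WT at 34 dpa.

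The largest differences were at rank 12, Solyc10g080210.2, and rank 52, Solyc12g011310.2. The former had 4639, 4507 and 4937 FPKM in tdr4-1 fruit, against about 3 FPKM or less in WT at 25 dpa, a difference of 10.39 ± 0.55 (adjusted p = 1.92e-13). The latter had 2733, 2671 and 2850 FPKM in tdr4-1 and 3.36, 3.03 and 2.96 FPKM in WT at 25 dpa, a difference of 9.39 ± 0.15. Of the 3 called lower, the largest differences were at rank 55, Solyc07g064170.3 (-1.16 ± 0.11, adjusted p = 3.4e-09), and at rank 29, Solyc01g099770.3 (-0.88 ± 0.11). The second of these was -0.19 with size factors (adjusted p = 0.226) and no longer called.

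Against tdr4-1, rin-1 fruit at 34 dpa had 42 of the 60 genes lower and 4 higher, where 14.4% of all genes tested were lower and 51.3% higher. The 60 had a median of -0.99 and all genes one of 0.30. With size factors limma called 51 lower and 0 higher (1 higher at an unadjusted p under 0.05), beside 31.4% and 32.4% of all genes. With quantile scaling 29 were lower and 6 higher, beside 33.3% and 28.4%, and the median of the 60 was -0.46. Without dml2-3 replicate 3 at 25 dpa in the fit, 49 were lower, 5 higher and 6 not called, beside 16.2% and 54.9%. Each of the comparisons with tdr4-1 in this and the following paragraphs uses the same 3 tdr4-1 libraries, so that they are not independent of each other.

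The steepest was Solyc01g081250.3, at rank 11, with 14900, 15293 and 15079 FPKM in tdr4-1 and 2.3, 3.01 and 3.15 FPKM in rin-1 fruit (-11.96 ± 0.40, adjusted p = 2.59e-16). Next came Solyc08g066240.3, at rank 44, with 1931, 1961 and 1984 FPKM in tdr4-1 and 1.57, 2.03 and 1.54 FPKM in rin-1 (-9.50 ± 0.25). Both were thus below 4 FPKM in every rin-1 library and above 1900 FPKM in every tdr4-1 library. WT at 25 dpa differed between them, with 378, 311 and 296 FPKM for rank 11 and 1.88, 2.22 and 2.33 FPKM for rank 44.

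In the other direction, the rank 1 gene Solyc10g017970.1 was higher in rin-1 than in tdr4-1 (61411, 74840 and 56907 FPKM), by 1.38 ± 0.29 (adjusted p = 0.000292). Its neighbour at rank 8, Solyc10g017980.1, was higher by 0.88 ± 0.35 (adjusted p = 0.0312), with 25791, 27299 and 28091 FPKM in rin-1 and 14064, 16723 and 13545 FPKM in tdr4-1. The groups did not overlap for either gene, but both calls depended on the processing. With size factors the differences were 0.99 (adjusted p = 0.064) and 0.48 (adjusted p = 0.236), and with quantile scaling the rank 1 gene differed by 0.00, because it is the highest value in both groups. Without the filter on low values the adjusted p was 0.666 and 0.15, and with no trend of variance, an alternative chosen after seeing the data, it was 2.41e-06 for rank 1. The call at rank 8 was also lost on leaving out tdr4-1 replicate 1 or 3 or any rin-1 replicate, with adjusted p from 0.0527 to 0.0801.

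In nor-1 fruit 29 of the 60 genes were lower and 2 higher than in tdr4-1, where 19.0% of all genes tested were lower and 34.6% higher. The 60 had a median of -0.52, and 29 genes were not called. With size factors the counts were 33 and 1, beside 27.7% and 28.2% of all genes, and with quantile scaling 27 and 8, beside 29.2% and 24.6%. Leaving dml2-3 replicate 3 at 25 dpa out of the fit, a library outside this comparison that adds to the shared estimate of spread, gave 38 lower, 7 higher and 15 not called, beside 21.7% and 39.2%. The rank 11 gene had 0.21, 0.88 and 0.66 FPKM in nor-1 fruit (-13.24 ± 0.40, adjusted p = 9.97e-17), the lowest of its 9 group means. Solyc07g054810.1, at rank 45, had 824, 878 and 781 FPKM in tdr4-1 and was listed at 0, 0 and 11.6 FPKM in nor-1 (-8.47 ± 0.97). The rank 44 gene, near 2 FPKM in rin-1, was at 769, 792 and 803 FPKM in nor-1 fruit.

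Higher in nor-1 than in tdr4-1 were Solyc03g117630.1, at rank 36 (5292, 4911 and 5198 FPKM against 3176, 3195 and 3237 FPKM, 0.68 ± 0.09, adjusted p = 8.18e-07), and the rank 29 gene (3427, 3146 and 3115 FPKM against 2553, 2972 and 2353 FPKM, 0.30 ± 0.11, adjusted p = 0.0258). The latter call was lost with size factors (adjusted p = 0.355), without the filter (0.186) and without tdr4-1 replicate 1 (0.071), tdr4-1 replicate 3 (0.13) or nor-1 replicate 1 (0.0952). Of the 60 genes, 10 had their highest group mean in nor-1 fruit, 17 had it in tdr4-1, and 25 had it in WT at 34 dpa, the group they were chosen on.

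The rin/tdr4-1 fruit at 34 dpa had 53 of the 60 genes lower and 4 higher than tdr4-1, where 14.9% of all genes tested were lower and 64.5% higher. The 60 had a median of -3.37. All 34 genes of the steepest WT class were lower, and their median was -6.13. Under size factors 54 were lower and 1 higher, beside 35.7% and 36.1% of all genes, and with quantile scaling 45 and 11, beside 33.2% and 36.1%. The count higher was 6 without dml2-3 replicate 3 at 25 dpa. Solyc05g014280.4, at rank 19, had 5606, 5200 and 5986 FPKM in tdr4-1 and 7.91, 8.15 and 7.9 FPKM in rin/tdr4-1 (-9.28 ± 0.42, adjusted p = 2.2e-14). The rank 44 gene, with 2.4, 2.34 and 2.49 FPKM, was lower by 9.17 on the log2 scale.

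The 4 higher genes included rank 29, with 6957, 6924 and 6984 FPKM in rin/tdr4-1 (1.41 ± 0.11, adjusted p = 1.77e-10), the highest of its 9 group means. Solyc06g070980.3, at rank 46, had 3415, 3425 and 3386 FPKM in rin/tdr4-1 and 1918, 2347 and 1786 FPKM in tdr4-1 (0.77 ± 0.13, adjusted p = 1.85e-05). With size factors the second was 0.07 (adjusted p = 0.714) and not called.

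In dml2-3 fruit at 34 dpa 55 of the 60 genes were lower and 2 higher than in tdr4-1, where 15.9% of all genes tested were lower and 61.2% higher. Their median was -4.09. With size factors limma called 57 lower and 0 higher (also 0 at an unadjusted p under 0.05), beside 35.2% and 36.6% of all genes, and with quantile scaling 45 and 9, beside 34.1% and 35.9%. The rank 11 gene had 1.7, 1.7 and 1.22 FPKM (-12.54 ± 0.40) and the rank 12 gene 0.51, 0.39 and 0.38 FPKM (-11.68 ± 0.55, adjusted p = 2.43e-14). At rank 43, Solyc10g050990.2 was listed at 0 in all 3 dml2-3 libraries, against 973, 924 and 1219 FPKM in tdr4-1. The 2 higher genes were those at rank 29 (4546, 5258 and 4853 FPKM, 0.90 ± 0.11) and rank 46 (2690, 3123 and 2976 FPKM, 0.55 ± 0.13). With size factors they were 0.28 (adjusted p = 0.071) and -0.07 (adjusted p = 0.716).

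**Figure D3:**
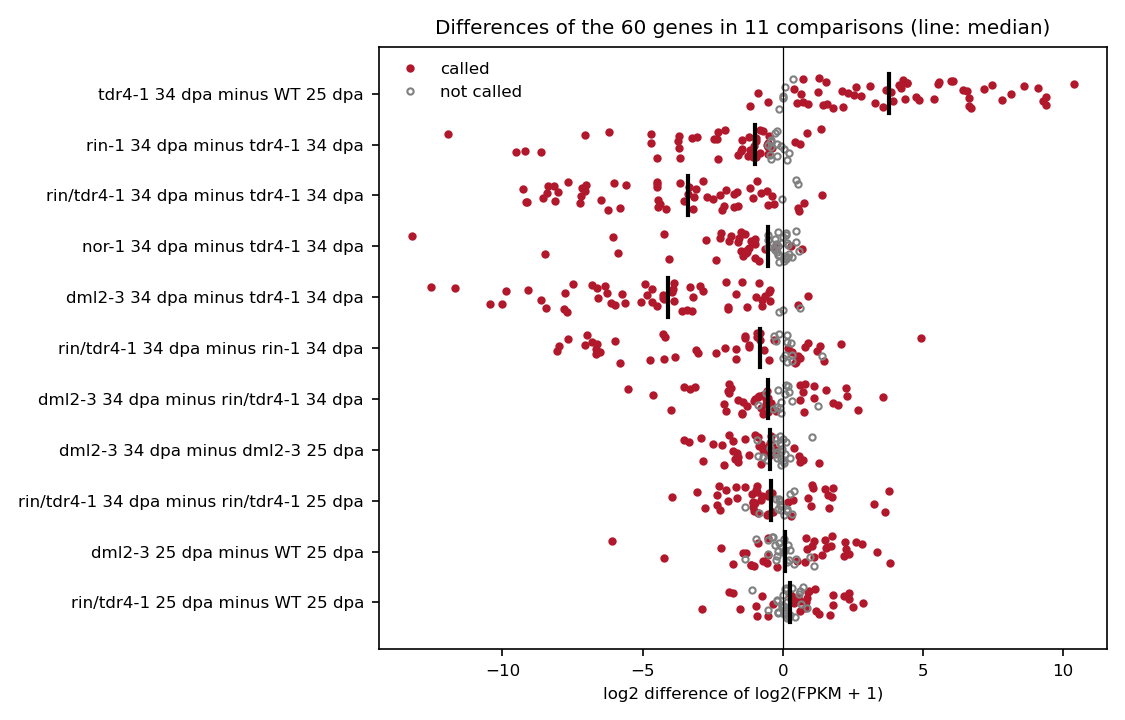
Difference of each of the 60 genes on the log2(FPKM + 1) scale in the 11 comparisons, one point a gene, filled where called by limma at an adjusted p under 0.05, with a bar at the median. The medians run from -4.09 (dml2-3 minus tdr4-1 at 34 dpa) to 3.79 (tdr4-1 at 34 dpa minus WT at 25 dpa), and in the stage comparisons of the mutants they lie at -0.44 and -0.43.

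The rin-1 and rin/tdr4-1 fruits were then compared directly, as both carry a rin mutation. Of the 60 genes, 34 were lower and 14 higher in rin/tdr4-1 than in rin-1 fruit, where 20.7% of all genes tested were lower and 48.9% higher. Their median was -0.80 and that of all genes 0.26. With size factors 35 were lower and 8 higher, beside 31.9% and 33.1% of all genes, and the median of the 60 was -1.11. With quantile scaling 28 were lower and 16 higher, beside 27.6% and 37.9%, and the median was -0.34. Without dml2-3 replicate 3 at 25 dpa in the fit, 35 were lower and 19 higher, beside 22.9% and 51.8%. Of the 60 genes, 33 were among the 60 highest of rin-1 fruit and 19 of rin/tdr4-1, so rin-1 was closer to the group that chose them. An excess of genes lower in rin/tdr4-1 is thus partly fixed by the choice here too, and nothing is read from that excess. Solyc03g117630.1, at rank 36, had 2275, 2269 and 2206 FPKM in rin-1 and 7.06, 7.65 and 7.57 FPKM in rin/tdr4-1 (-8.06 ± 0.09, adjusted p = 6.3e-25). Solyc11g020330.1, at rank 26, had 3644, 3653 and 3720 FPKM in rin-1 and 11.2, 16.3 and 13.2 FPKM in rin/tdr4-1 (-7.99 ± 0.19). Both genes were therefore among the abundant transcripts of rin-1 and tdr4-1 fruit and were low when both mutations were present.

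The reverse was seen at rank 11: 2.3 to 3.15 FPKM in rin-1 and 114, 113 and 118 FPKM in rin/tdr4-1, higher by 4.93 ± 0.40 (adjusted p = 5.96e-10). That level was still far below the 14900 FPKM or more of tdr4-1. Solyc03g083910.5, at rank 23, had 378, 393 and 389 FPKM in rin-1 and 1666, 1644 and 1638 FPKM in rin/tdr4-1 (2.09 ± 0.09), between rin-1 and the 5069, 5422 and 4991 FPKM of tdr4-1.

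**Figure D4:**
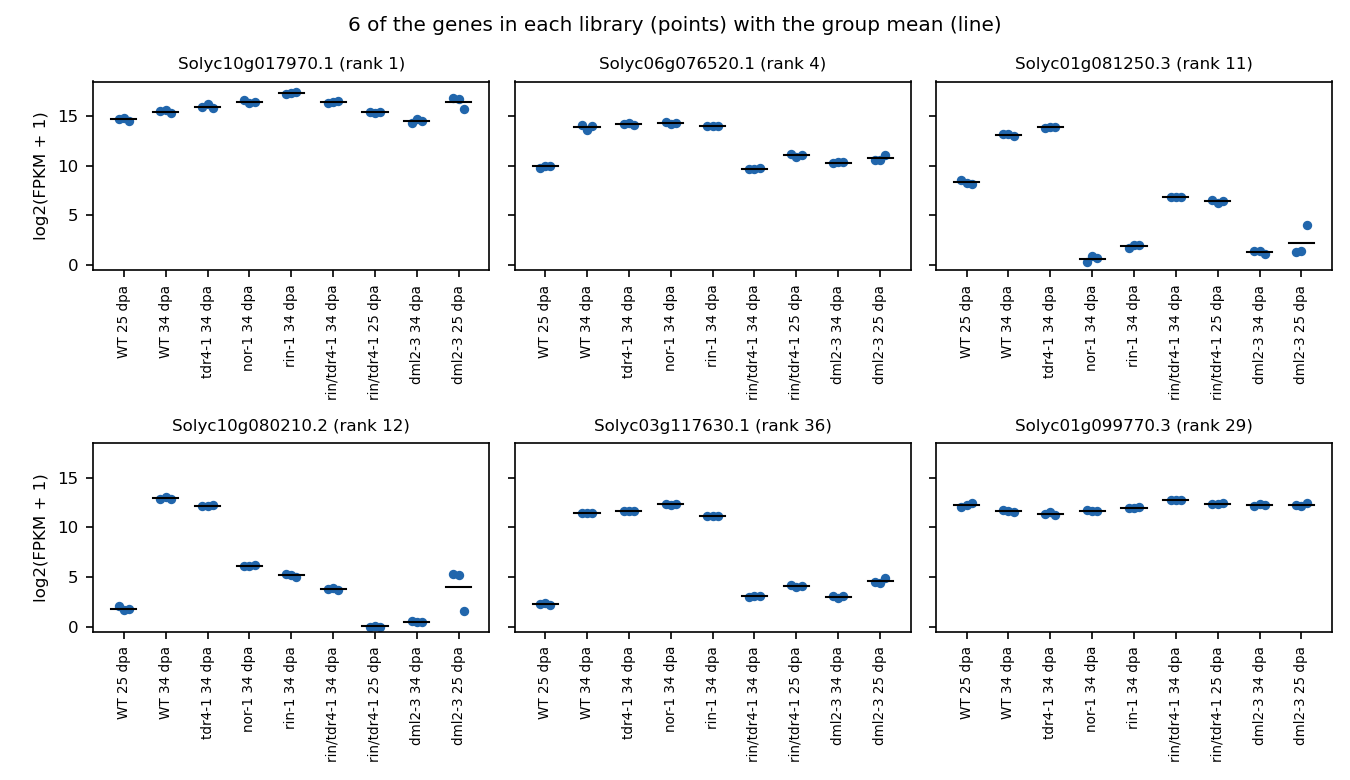
Level of 6 of the 60 genes in each library (points) with the group mean (line), as log2(FPKM + 1); the 6 were picked after the values were seen, to show the patterns described. Rank 36 is high in tdr4-1, nor-1 and rin-1 and near 7 FPKM in rin/tdr4-1 fruit at 34 dpa, rank 11 is under 4 FPKM in nor-1 and rin-1, and rank 29 stays above 2000 FPKM in every library.

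To lay out the list, the 60 genes were sorted by their mean levels in tdr4-1, rin-1 and rin/tdr4-1 fruit at 34 dpa with cuts at 2-fold, drawn after the values were seen and given without a test. Since rin-1 enters both cuts, the counts are a description only. Set a holds 18 genes whose level in rin-1 was above 1/2 of that in tdr4-1 while rin/tdr4-1 was at or below 1/2 of rin-1. Set b holds 9 genes at or below 1/2 at both steps. Set c holds 21 genes at or below 1/2 in rin-1 and above 1/2 of rin-1 in rin/tdr4-1, and set d 12 genes with neither. Within set c some genes were still lower in rin/tdr4-1, as at rank 2 (57.1% of rin-1), and others higher, as at rank 23 (427%). Some genes lay near a cut: that at rank 24, in set a, stood at 51.3% of tdr4-1 in rin-1, and that at rank 33, in set b, at 49.1%.

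Set a held 8.85% of all FPKM in WT at 34 dpa, 10.8% in tdr4-1, 10% in nor-1 and 7.94% in rin-1, but 0.819% in rin/tdr4-1 and 1.22% in dml2-3 fruit. Its median gene was at 2900 FPKM in rin-1 and 83.7 FPKM in rin/tdr4-1. In nor-1, a group the sorting did not use, the median gene of set a was at 4400 FPKM, beside 4130 FPKM in tdr4-1 and 3160 FPKM in WT at 34 dpa. The gene at rank 13 is an example, with 11693, 10140 and 12313 FPKM in nor-1, 8311, 7971 and 7565 FPKM in rin-1, and 36.4, 36.9 and 40.6 FPKM in rin/tdr4-1.

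Set c held 12.9% in WT at 34 dpa and 11.6% in tdr4-1, but 3.31% in nor-1, 1.66% in rin-1, 1.69% in rin/tdr4-1 and 2.08% in dml2-3 fruit. Its median gene was at 2590 FPKM in tdr4-1, 602 FPKM in nor-1 and 294 FPKM in rin-1. The gene at rank 6 had 6551, 7316 and 6133 FPKM in tdr4-1, 84.3, 105 and 81.6 FPKM in rin-1 and 113, 93.7 and 97.8 FPKM in rin/tdr4-1. In nor-1 the rank 6 gene was also low, at 337, 376 and 349 FPKM.

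Set b held 4.2% in tdr4-1, 2.15% in nor-1, 1.09% in rin-1 and 0.21% in rin/tdr4-1 fruit. The gene at rank 16, for instance, averaged 5408 FPKM in tdr4-1, 2371 FPKM in rin-1 and 36.8 FPKM in rin/tdr4-1. Set d, which includes ranks 1 and 3, held 11.9% in WT at 34 dpa, 14.0% in tdr4-1, 15.5% in nor-1, 21.3% in rin-1 and 16.4% in rin/tdr4-1, and 8.01% in dml2-3 fruit. Of its 12 genes, 11 were among the 15 within 2-fold between the WT ages.

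**Figure D5:**
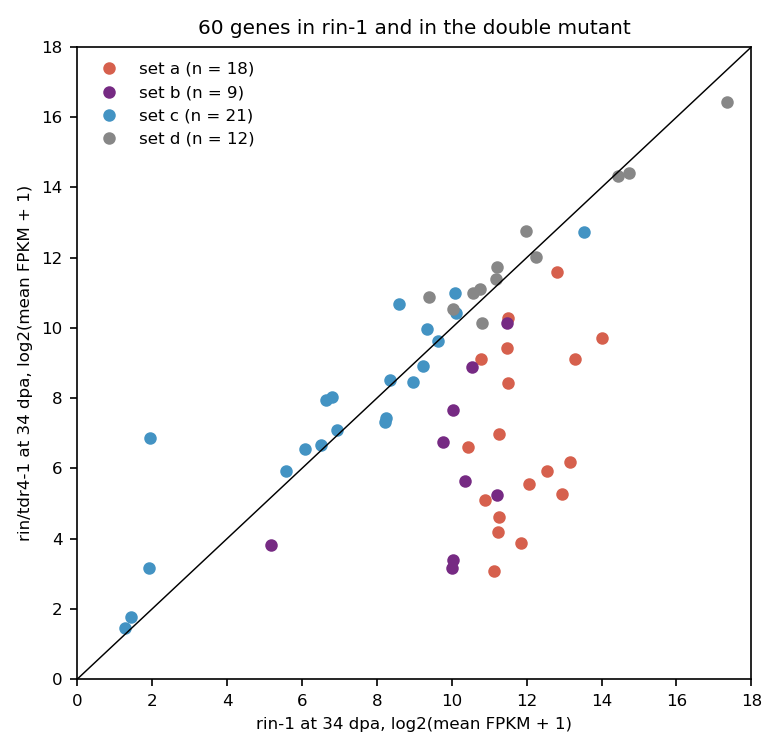
Mean level of the 60 genes in rin-1 (x axis) and in rin/tdr4-1 fruit (y axis) at 34 dpa, as log2(mean FPKM + 1), coloured by sets a to d, with the line of equal levels. Set a (18 genes) and set b (9) lie below the line by construction, and sets c (21) and d (12) near or above it.

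The dml2-3 and rin/tdr4-1 fruits at 34 dpa, low in most of the list, differed from each other. Of the 60 genes, 32 were lower and 14 higher in dml2-3, where 35.7% of all genes tested were lower and 25.1% higher. The share of the 60 called higher, 14 genes, was thus close to that of all genes. Lower in dml2-3 were rank 11 (-5.52 ± 0.40, adjusted p = 1.65e-10) and rank 23, with 65.5, 63 and 67.5 FPKM in dml2-3 (-4.64 ± 0.09, adjusted p = 2.08e-20). Higher were rank 26, with 170, 164 and 175 FPKM in dml2-3 (3.57 ± 0.19, adjusted p = 8.26e-13), and Solyc07g049530.3, at rank 51, with 3938, 3805 and 3094 FPKM in dml2-3 and 554, 542 and 557 FPKM in rin/tdr4-1 (2.70 ± 0.27). The dml2-3 fruit at 34 dpa was the group with the highest mean of the rank 51 gene, 3612 FPKM, and with the lowest mean of 21 of the 60 genes.

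Between the ages, dml2-3 fruit had 31 of the 60 genes lower and 5 higher at 34 than at 25 dpa, where 21.8% of all genes tested were lower and 12.0% higher. The median of the 60 was -0.44; with TPM scaling 21 were lower and 9 higher, beside 11.2% and 24.8% of all genes. Fitted on these 2 groups alone, 7 were lower and 1 higher, beside 6.57% and 5.51%. Without replicate 3 of the 25 dpa group 34 were lower and 7 higher, beside 29.3% and 15.1%, and the median was -0.40. The rank 12 gene had 38.8, 35.3 and 1.99 FPKM at 25 dpa and less than 1 FPKM at 34 dpa (-3.51 ± 0.55, adjusted p = 4.03e-05). Solyc03g082420.3, at rank 16, had 127, 115 and 65.1 FPKM at 25 dpa and 9.18, 9.32 and 8.03 FPKM at 34 dpa (-3.34 ± 0.15). In both, replicate 3 was the lowest of the 25 dpa libraries and still above those at 34 dpa, and without it the differences were -4.74 and -3.63.

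Higher at 34 dpa in dml2-3 were Solyc10g076510.2, at rank 56 (57.6, 59.9 and 19.4 FPKM, then 98.7, 98.3 and 105 FPKM, 1.28 ± 0.23), and the rank 55 gene (760, 717 and 1127 FPKM, then 1351, 1273 and 1305 FPKM, 0.62 ± 0.11). Without replicate 3 at 25 dpa they were 0.77 and 0.83. In the fit of these 2 groups alone the adjusted p was 0.133 and 0.0995, and 0.0957 for the rank 12 gene. None of these levels approached those of WT at 34 dpa for ranks 12, 16 and 56, which averaged 7755, 5788 and 1846 FPKM.

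In rin/tdr4-1 fruit 30 of the 60 genes were lower and 15 higher at 34 than at 25 dpa, where 30.1% of all genes tested were lower and 28.6% higher. The median of the 60 was -0.43 and that of all genes -0.01, and the count higher was close to that of all genes. Higher were rank 12 (0, 0.07 and 0 FPKM, then 13.3, 13.9 and 12.3 FPKM, 3.79 ± 0.55, adjusted p = 5.17e-06) and rank 52 (8.71, 8.87 and 9.83 FPKM, then 122, 117 and 137 FPKM, 3.64 ± 0.15). Lower were Solyc08g062340.3, at rank 24 (300, 250 and 288 FPKM, then 17.3, 16.4 and 17.7 FPKM, -3.95 ± 0.22), and Solyc01g102960.3, at rank 13 (366, 280 and 338 FPKM, then 36.4, 36.9 and 40.6 FPKM, -3.07 ± 0.13). Ranks 24 and 13 belong to the class that stood at least 10-fold higher at 34 dpa in WT, as do 34 of the 60. Of that class, 19 genes were lower and 8 higher at 34 dpa in rin/tdr4-1 fruit.

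At 25 dpa, before the breaker stage, dml2-3 fruit had 21 of the 60 higher and 15 lower than WT, where 26.7% of all genes tested were higher and 27.8% lower. The median was 0.06, and the count lower was near that of all genes. On these 2 groups alone 12 were higher and 9 lower, beside 12.4% and 14.9% of all genes. Without dml2-3 replicate 3 the counts were 27 and 21, beside 33.1% and 29.9%, and the median was 0.05. The rank 52 gene had 63.3, 59.2 and 49.4 FPKM in dml2-3, against about 3 FPKM in WT (3.82 ± 0.15, adjusted p = 1.23e-14), and Solyc03g113930.3, at rank 32, had 192, 193 and 58.3 FPKM against 10.4, 12.9 and 12.1 FPKM (3.36 ± 0.27). Lower were rank 11, with 1.53, 1.7 and 15 FPKM (-6.10 ± 0.40), and rank 43, listed at 0, 5.2 and 0 FPKM against 36.1, 34.9 and 31.1 FPKM in WT (-4.25 ± 0.87, adjusted p = 0.000329). Without dml2-3 replicate 3 the differences at ranks 52, 32, 11 and 43 were 3.92, 3.93, -6.97 and -3.81, and all 4 were still called.

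In rin/tdr4-1 fruit at 25 dpa 24 of the 60 were higher and 9 lower compared with WT, where 17.4% of all genes tested were higher and 15.3% lower. The median was 0.28 and 27 genes were not called. Leaving dml2-3 replicate 3 of that age out of the fit gave 33 higher, 10 lower and 17 not called, beside 23% and 19.8% of all genes. Rank 32, with 104, 82.8 and 92.1 FPKM (2.88 ± 0.27, adjusted p = 2.56e-08), and Solyc08g062437.1, at rank 39, with 267, 203 and 251 FPKM against 41.4, 41.5 and 39.8 FPKM in WT (2.52 ± 0.31), were higher. Rank 11 was lower, with 91, 78 and 87.6 FPKM (-1.92 ± 0.40, adjusted p = 0.000819), as was rank 43, listed at 13, 0 and 6.69 FPKM (-2.88 ± 0.87, adjusted p = 0.0145). The call at rank 43 was lost with a pseudocount of 0.1 (adjusted p = 0.0903), with these 2 groups alone (0.0613) and without rin/tdr4-1 replicate 2 (0.13). Both comparisons at 25 dpa use the same 3 WT libraries.

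By their identifiers, which place tomato genes in order along a chromosome, the 60 genes lay on all 12 chromosomes, from 1 on chromosome 5 to 8 on chromosome 10. Pairs within 10 genes of each other were ranks 4 and 5 and ranks 5 and 9 on chromosome 6, ranks 31 and 55 on chromosome 7, ranks 24 and 39 on chromosome 8, ranks 22 and 54 on chromosome 9, and ranks 1 and 8 on chromosome 10. Ranks 4, 5 and 9 all belong to set a, with 16390, 9122 and 10100 FPKM in rin-1 and 845, 71.3 and 552 FPKM in rin/tdr4-1 fruit on average, but in nor-1 fruit rank 5 stood apart at 3372, 2890 and 3410 FPKM, below rank 4 and rank 9. Ranks 1 and 8 were the 2 highest transcripts of both rin-1 and rin/tdr4-1 fruit. Whether such neighbours share reads through similar sequence was not tested.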

How the data were processed

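The authors deposited 1 table of FPKM values per gene and library; per the submitters' processing notes the tools were Trimmomatic, STAR 2.5.4b, RSEM and DESeq2, with the genome build, annotation and strand setting not given in the sources used here. Each of the 27 columns was tied to a sample by name. FPKM is relative, so a few very high transcripts lower all others, and genes of similar sequence can share reads; the commonest step between low values fitted at most 4.84% of low genes, so whole reads were not recovered. Shares were computed per library. Tests used limma 3.58.1 in R 4.3.3 on log2(FPKM + 1), with 1 mean per group over all 27 libraries and empirical Bayes with trend. Benjamini-Hochberg adjustment was made over 18906 genes that reached 1 FPKM in 3 or more libraries. The fit was also run on simulated data in which few genes were changed, unlike here, and nothing is drawn from that run. The 60 genes, the comparison list and the contrasts were chosen with earlier results of these data known. With no names for the identifiers, the rule printed at most 2 identifiers that rose and 2 that fell per comparison: the called genes with the largest differences whose higher group averaged 10 FPKM or more and whose libraries did not overlap, and for the WT ages the 2 highest-ranked genes at least 2-fold higher. Other genes are given by rank; those outside the rule, such as ranks 3, 6 and 60, were chosen after their values were seen. Alternatives were a pseudocount of 0.1, other filters, size factors, quantile scaling, TPM, fewer groups, a replicate block and leaving out libraries.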

Additional observations from a re-analysis of the deposited data

Results flagged for a closer look

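In each case below every library of a group moved one way between 25 and 34 dpa and every library of another group the opposite way; the difference between the genotypes was not tested. The share of FPKM held by the 60 genes was 23.7 percentage points higher at 34 than at 25 dpa in WT and stood at -8.81 points in dml2-3, or -10.8 without replicate 3 of dml2-3 at 25 dpa. In dml2-3 the rank 1 gene held 9.32% at 25 dpa and 2.68% at 34 dpa, and ranks 2 to 60 held 10.86% and 8.69%.

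Between the ages, 7 named genes went opposite ways in dml2-3 and rin/tdr4-1 fruit, on the log2(FPKM + 1) scale. They are only those printed under the naming rule, which takes the largest differences of each comparison. In the whole list, 9 genes fell in dml2-3 and rose in rin/tdr4-1, and 2 rose in dml2-3 and fell in rin/tdr4-1. The share of all genes tested that went opposite ways was not computed, so nothing is read from these counts. Solyc10g017970.1, at rank 1, was at -1.93 in dml2-3 and 1.05 in rin/tdr4-1, and its neighbour Solyc10g017980.1, at rank 8, at -2.91 and 1.51. Solyc10g080210.2, at rank 12, was at -3.51 in dml2-3 and 3.79 in rin/tdr4-1. The values were -0.39 and 1.76 for Solyc03g083910.5, -1.6 and 1.64 for Solyc08g066240.3, and -2.86 and 3.64 for Solyc12g011310.2. Solyc07g064170.3, at rank 55, went the other way, at 0.62 in dml2-3 and -0.88 in rin/tdr4-1. Replicate 3 of dml2-3 at 25 dpa, which stood apart, had 53745 FPKM of the rank 1 gene, against 118026 and 110998 FPKM in the other 2 libraries. Without it the dml2-3 differences were -2.29 at rank 1, -3.61 at rank 8, -4.74 at rank 12, -0.24 for Solyc03g083910.5, -2.12 for Solyc08g066240.3, -2.96 for Solyc12g011310.2 and 0.83 at rank 55. It had 5341 FPKM of the rank 8 gene, against 23821 and 22661 FPKM, all above the 1846 to 1930 FPKM of dml2-3 fruit at 34 dpa.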

How the results depend on the processing

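Totals of genes called, over both directions, changed by less than 1.5 times under every alternative run except the fit on the 2 groups alone, which called 8 genes between the dml2-3 ages in place of 36 and 21 for dml2-3 against WT at 25 dpa in place of 36; a fit on 6 libraries has fewer residual degrees of freedom by construction. Counts in 1 direction moved further where they were small: with quantile scaling the genes called higher than in tdr4-1 went from 4 to 11 in rin/tdr4-1, from 2 to 9 in dml2-3 and from 2 to 8 in nor-1, and with size factors those higher in rin/tdr4-1 than in rin-1 went from 14 to 8. In tdr4-1 fruit 3 genes stood at least 2-fold below WT at 34 dpa with size factors and 3 with quantile scaling, in place of 5. The 30 highest genes held 31.11% of FPKM in WT at 34 dpa, 12.1% in WT at 25 dpa, 34.39% in tdr4-1, 25.83% in nor-1, 28.5% in rin-1, 17.07% and 15.95% in rin/tdr4-1 at 34 and 25 dpa, and 9.358% in dml2-3 at 34 dpa. The 100 highest held, in the same order, 42.56%, 16.94%, 45.1%, 35.38%, 35.19%, 22.09%, 21.24% and 14.17%. For single genes, 2 differences lost their sign: Solyc10g017970.1 in rin-1 minus tdr4-1, at 0.00 with quantile scaling, and Solyc06g070980.3 in dml2-3 minus tdr4-1, at -0.07 with size factors; 23 other values, given beside the genes above where they end a call, missed the threshold and 715 kept sign and call. The cause was not tested.

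Same-numbered libraries did not deviate together (correlations of at most 0.1), so replicate numbers were not taken as pairs; with a replicate block the comparison of rin-1 with tdr4-1 called 46 genes, as without it, and no count moved by more than 1. Leaving out 1 library at a time, the genes called ranged from 55 to 56 for tdr4-1 minus WT at 25 dpa, 44 to 54 for rin-1, 30 to 45 for nor-1, 56 to 59 for rin/tdr4-1 and 56 to 59 for dml2-3, each minus tdr4-1, 45 to 54 for rin/tdr4-1 minus rin-1, and 41 to 50 for dml2-3 minus rin/tdr4-1. The ranges were 29 to 41 and 38 to 50 between the ages in dml2-3 and rin/tdr4-1, and 35 to 48 and 27 to 43 for those lines minus WT at 25 dpa. Depth is unknown, which limits what a value near 0 FPKM can show.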
